A study of Rattus norvegicus with 4 samples.

Results

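Mitotic kinases, kinetochore proteins and spindle proteins were examined in rat INS-1 832/3 cells grown in 3D-bioprinted hydrogel or in 2D monolayer culture. A list of 52 genes was drawn up by their function in mitosis, with earlier results of these data known. TPM (an abundance per transcript length, scaled to the same total in each sample) were summed over the transcripts of each gene symbol. Of these 52 genes, 51 were found among the 23360 genes of the files. Ccnb2, a B-type cyclin, was not analysed here. All 51 had a mean TPM of at least 1 and were therefore tested.

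INS-1 832/3 is an insulin-secreting clone of a rat insulinoma line that carries the human insulin gene and a Geneticin resistance, so all 4 samples come from the same clone. In the 3D group, cells were printed into GelXA LAMININK 411, a gelatin methacrylate hydrogel with laminin-411 that is crosslinked by light, and the 2D group was seeded as a standard monolayer. Each group held 2 biological replicates at passage 3, in the same RPMI-1640 medium, and polyA RNA was taken after 5 days. The sources do not say whether the replicates came from separate printing sessions, so p-values measure the spread between these samples. The 4 libraries had between 19355 and 19959 transcripts above 0. TPM keep no sequencing depth, and the precision of each value is therefore that of 2 cultures per group.

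The beta cell identity of the line was checked by marker genes. Of 13 listed beta cell markers, 12 were in the files, and their summed TPM was 147694 and 160636 in 2D and 158171 and 170816 in 3D. Most of this sum was Ins1 (114003 to 137822 TPM), which was not called. Ins2 fell (-0.58, limma adjusted p = 0.00945), the glucose transporter Slc2a2, the prohormone convertase Pcsk2 and the potassium channel subunit Abcc8 rose (0.39, 0.58 and 0.82, limma adjusted p = 0.00748, 0.00411 and 0.00349), and the remaining 8, Ins1 among them, were not called. The part of these changes in the values of the mitotic genes was not tested. Markers of cells that should be absent were low: the endothelial list summed to 1.33 to 2.17 TPM with Cdh5 and Emcn at 0, and the macrophage list to 0.635 to 1.49 TPM with Ptprc at 0. The fibroblast list summed to 180 to 214 TPM, nearly all of it Thy1, with Dcn, Lum and Pdgfrb at 0. Gcg, which encodes the alpha cell hormone glucagon, measured 41.9 and 73.8 TPM in 2D and 124 and 155 TPM in 3D. It was the only one of 6 markers of other islet cells that passed the expression filter, and it rose with the change to 3D culture (log2 fold change 1.26, limma adjusted p = 0.0217). Its part in those values was not tested either.

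Mitosis is driven by the kinase CDK1, which binds A- and B-type cyclins, is held inactive by inhibitory phosphorylation and is switched on by the CDC25 phosphatases. Aurora and Polo-like kinases then build the spindle, kinetochores attach chromosomes to microtubules, and the spindle checkpoint restrains the anaphase-promoting complex (APC/C) until every chromosome is attached. Transcripts of most of these genes accumulate in G2 and M phase, so that in a growing insulinoma line their abundance is commonly read as a marker of cycling cells. In bulk RNA, however, fewer cells in mitosis and less of each transcript per mitotic cell cannot be told apart.

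All 51 genes were lower in both 3D samples than in both 2D samples, whereas 38.2% of all 11960 genes tested were, and 37.3% of all genes tested were higher in both. Of the 51, 50 fell and 0 rose in limma's test on log2(TPM + 1), when a Benjamini-Hochberg adjusted p under 0.05 was required. At an unadjusted p under 0.05 the counts were also 50 and 0. Among all genes tested, 19.5% were called lower and 18.5% higher. The list was chosen with earlier results of these data known, so these shares describe it and do not test it. At an adjusted p under 0.01, 35 of the 51 were lower, against 5.93% of all genes tested. The median log2 fold change (3D minus 2D) of the mitotic genes was -0.50 and that of all genes tested -0.00. Among the 8283 other genes whose mean TPM lay within the range of the mitotic genes (6.23 to 178), 21.4% were called lower and the median was -0.01.

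The size of the decrease differed between genes. The 3D mean was between 56.1% (Cdca8) and 95.1% (Cdc25c) of the 2D mean, with a median of 71.8%. Of all genes tested, 10% had a log2 fold change below -0.39, and 38 of the 51 mitotic genes did. Standard errors ranged from 0.0509 to 0.108 on the log2 scale. Neighbours in the order of fold changes therefore mostly differ by less than their errors, while the ends of the order, Cdca8 at -0.86 (SE 0.0792) and Cdc25c at -0.11 (SE 0.067), have 95% confidence intervals that do not meet.

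Added up, the 51 genes took 2724 and 2665 TPM in the 2D samples and 1879 and 1980 TPM in the 3D samples. The mean was 2695 ± 41.6 (SD, n = 2) in 2D and 1929 ± 71.3 (SD, n = 2) in 3D, which was 71.6% of the 2D mean. Both 3D samples lay far below both 2D samples, and the gap between the groups exceeded the gap within either of them. With 2 against 2 samples, an exact two-sided permutation test of such a single value cannot give a p below 0.33.

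The number of calls fell most when a 3D sample was left out. Without 3D replicate 2, 28 of the 51 genes were called lower. Without 3D replicate 1, limma called 0, although 46 had an unadjusted p below 0.05, and over all genes tested 31 were called lower and 105 higher. Without 2D replicate 1 and without 2D replicate 2, 47 and 49 were called. Such fits have 3 samples, take the spread of a gene from the group that keeps 2, and assume that the lone sample varies like that group. All 51 log2 fold changes stayed below 0 in each of them.

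Replicates lay close together in the mitotic genes. The median gap between the 3D replicates was 0.059 on the log2 scale and that between the 2D replicates 0.050. As deposited, 3D replicate 2 exceeded 3D replicate 1 in 47 of the 51 genes, and after scaling between samples in 43. In 2D, replicate 1 exceeded replicate 2 in 39 genes as deposited and in 22 after scaling.

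**Figure D1:**
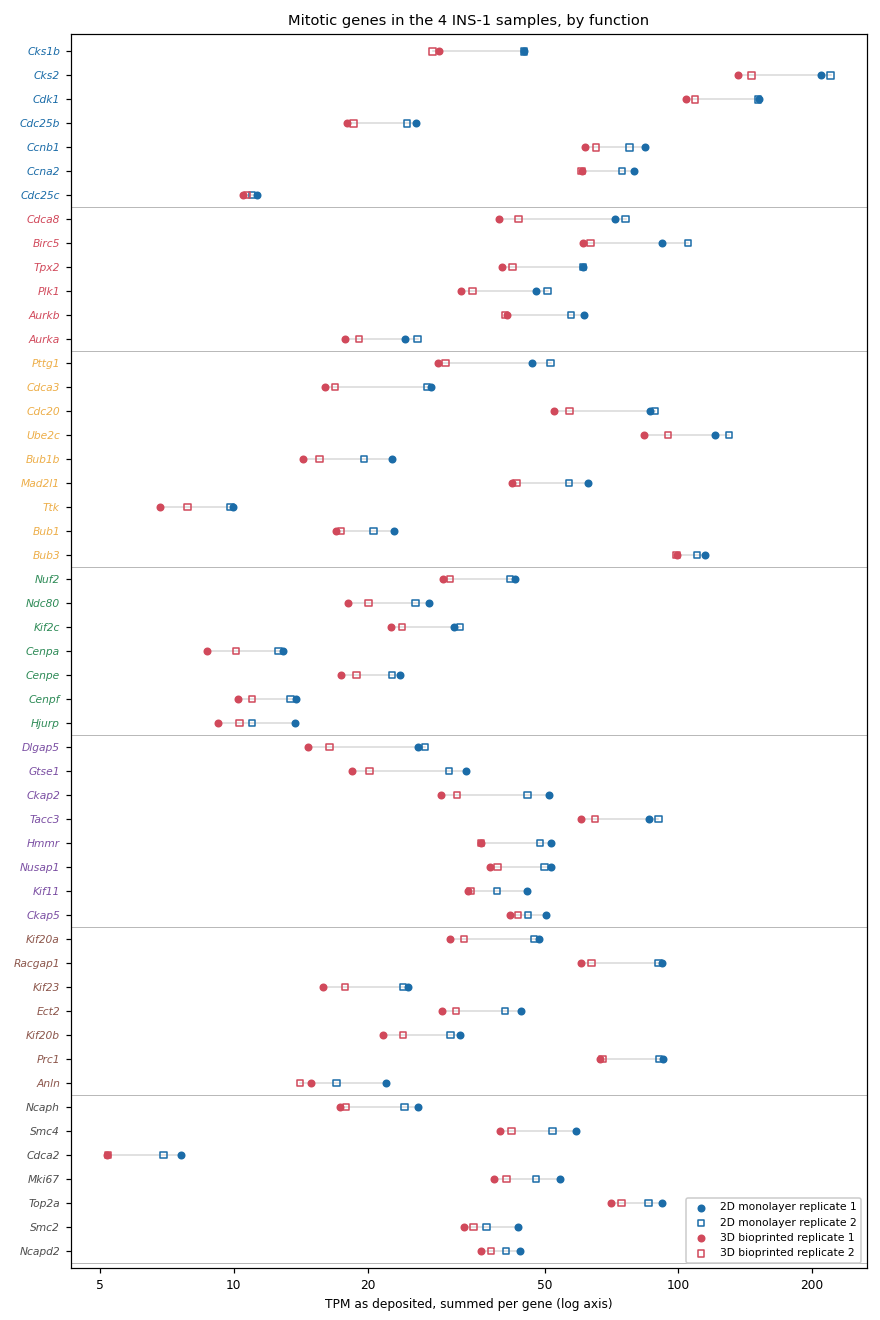
TPM of the 51 mitotic genes in each of the 4 samples, on a log axis, with genes grouped by function and label colours marking the groups. Circles are replicate 1 and squares replicate 2, blue for 2D monolayer and red for 3D bioprinted. Every gene had both red symbols to the left of both blue ones, with the narrowest separation in Cdc25c (11.3 and 11.0 against 10.5 and 10.7 TPM).

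**Figure D2:**
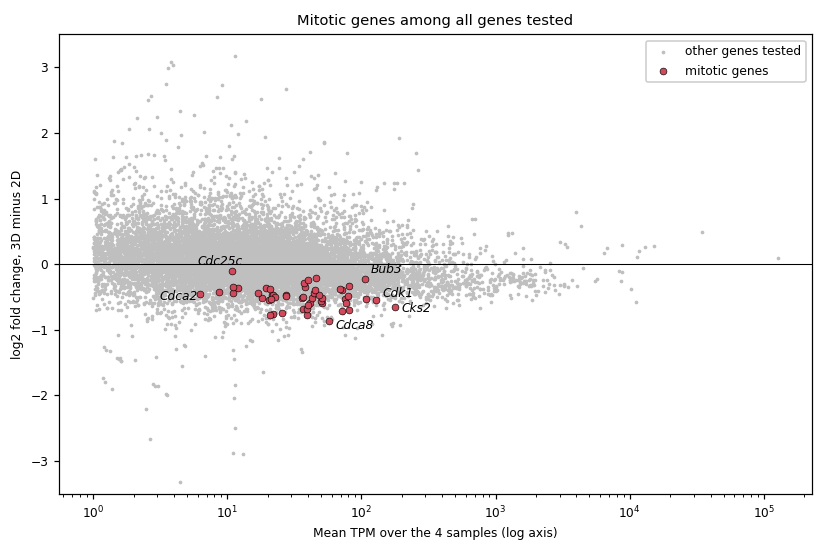
Log2 fold change (3D minus 2D) against mean TPM over the 4 samples on a log axis, for all 11960 genes tested (grey) and the 51 mitotic genes (red). The mitotic genes formed a band below 0 from Cdc25c at -0.11 to Cdca8 at -0.86, inside the spread of the other genes.

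Promoters were read from the RefSeq table of the GRCr8 assembly, which gives 250 bases before and 50 bases after each annotated start. Windows existed for 45 of the 51 genes (46 windows, since Kif2c has a pair). Ccna2, Tpx2, Aurkb, Ube2c, Racgap1 and Cdca2 had none. A pair of short elements known from G2/M promoters was searched on both strands: the cell cycle genes homology region (CHR, here TTTGAA or TTCGAA), which is bound by the MuvB complex, and CCAAT, the box bound by NF-Y. The CCAAT box and the CHR can share bases where TTTGAA runs into ATTGG.

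The 150 bases before the start are printed below for Cdk1, Ccnb1, Cks1b, Cks2 and Cdc25b of the CDK1 group. They show CHR and CCAAT matches side by side or, in Ccnb1, CCAAT matches alone. Cdca3, Cdca8, Cdc20 and Ckap2 are also printed, the genes of other groups with the smallest p-values whose window held an element. All printed genes were called lower. Cdc25c of the CDK1 group, which was not called, also held both elements and is not printed. Sequences run 5′ to 3′ on the strand of the gene, in lower case, and capitals mark every match to either element on either strand.
Cdk1, chr20:19265143-19265292, plus strand: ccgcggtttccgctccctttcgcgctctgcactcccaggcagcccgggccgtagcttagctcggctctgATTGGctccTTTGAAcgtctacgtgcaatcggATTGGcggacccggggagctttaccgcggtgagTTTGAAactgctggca
Ccnb1, chr2:33655226-33655375, minus strand: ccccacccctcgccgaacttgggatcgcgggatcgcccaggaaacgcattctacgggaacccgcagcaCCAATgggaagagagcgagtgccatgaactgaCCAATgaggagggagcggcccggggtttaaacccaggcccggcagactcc
Cks1b, chr2:177135334-177135483, minus strand: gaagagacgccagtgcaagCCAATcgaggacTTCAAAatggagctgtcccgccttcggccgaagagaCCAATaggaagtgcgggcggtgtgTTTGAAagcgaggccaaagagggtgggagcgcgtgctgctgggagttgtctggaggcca
Cks2, chr17:13727520-13727669, minus strand: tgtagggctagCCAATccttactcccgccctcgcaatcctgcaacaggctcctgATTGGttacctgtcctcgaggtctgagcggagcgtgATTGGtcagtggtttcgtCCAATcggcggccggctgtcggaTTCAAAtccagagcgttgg
Cdc25b, chr3:138860023-138860172, plus strand: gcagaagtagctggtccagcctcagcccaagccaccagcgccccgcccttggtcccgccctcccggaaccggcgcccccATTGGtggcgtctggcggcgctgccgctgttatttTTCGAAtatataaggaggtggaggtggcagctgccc
Cdca3, chr4:159321053-159321202, plus strand: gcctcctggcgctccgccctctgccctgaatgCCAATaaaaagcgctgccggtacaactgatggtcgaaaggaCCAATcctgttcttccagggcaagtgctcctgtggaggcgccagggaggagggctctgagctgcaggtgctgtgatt
Cdca8, chr5:142483200-142483349, minus strand: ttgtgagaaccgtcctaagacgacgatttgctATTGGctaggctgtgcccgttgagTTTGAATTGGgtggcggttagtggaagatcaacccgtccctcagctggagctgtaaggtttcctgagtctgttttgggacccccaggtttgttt
Cdc20, chr5:137255800-137255949, minus strand: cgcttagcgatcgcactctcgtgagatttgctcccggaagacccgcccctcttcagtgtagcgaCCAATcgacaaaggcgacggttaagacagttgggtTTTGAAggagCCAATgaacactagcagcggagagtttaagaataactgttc
Ckap2, chr16:76541964-76542113, plus strand: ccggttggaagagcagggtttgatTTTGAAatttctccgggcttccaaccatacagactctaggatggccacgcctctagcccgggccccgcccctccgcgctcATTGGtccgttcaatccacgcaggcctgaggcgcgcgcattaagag

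The Cdk1 promoter held 2 CHR matches, starting 72 and 16 bases before the start, next to CCAAT matches in reverse orientation (ATTGG) at 81 and 49 bases. In Cks2, 4 CCAAT matches were followed by a CHR match 19 bases before the start. Cdc25b carried the TTCGAA form 36 bases before the start. In Cdca8, TTTGAA and ATTGG overlapped as TTTGAATTGG. The printed stretches of Ccnb1 and Cdca3 held CCAAT matches and neither TTTGAA nor TTCGAA, the only CHR forms searched.

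A CHR match was present in 34 of the 46 windows (73.9%), against 19.7% of all 33469 windows of the same length and 13.2% of the windows of genes tested. A CCAAT match was likewise present in 34 windows (73.9%), against 37.5% of all windows and 37.7% of those of genes tested. Together, a CHR match and at least 2 CCAAT matches were found in 20 windows (43.5%), against 2.3% and 2.16%. No searched form of either element was found in 6 windows (13.0%), those of Aurka, Bub1, Gtse1, Ncaph and Kif2c. Gtse1 among them had a log2 fold change of -0.74. The median GC content was 58.3% in the windows of the mitotic genes and 61.3% in those of genes tested. The windows are shown as sequence only, and no binding was measured.

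The position of the matches was also uneven. CHR matches lay mostly within the last 125 bases before the start and the first 50 after it, and 43.5% of the mitotic windows had one in the last 50 bases before or the 50 after the start (3.28% of windows of genes tested). CCAAT matches were most frequent between 100 and 75 bases before the start, where 37.0% of the mitotic windows had one against 8.24% of the windows of genes tested.

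Genes outside the list were then grouped by the same elements, with 1 window each. Of 158 genes with a CHR match and at least 2 CCAAT matches, 39.9% were called lower and 11.4% higher. Their median log2 fold change was -0.21. Of 6171 genes with no CHR match and fewer than 2 CCAAT matches, 19.2% were called lower and 18.7% higher, with a median of -0.00. The 873 genes with a CHR match and fewer than 2 CCAAT matches were called lower in 24.2% and higher in 15.7% (median -0.03). The 1000 genes with at least 2 CCAAT matches and no CHR match were called lower in 25.5% and higher in 11.2% (median -0.08). The first set includes further cell cycle genes described below, which were also chosen with earlier results of these data known. The shares were not computed without them, and a part of these elements in the decrease was not tested. Cdc25c, the mitotic gene with the smallest change, held a CHR match 60 bases before the start and 4 CCAAT matches.

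**Figure D3:**
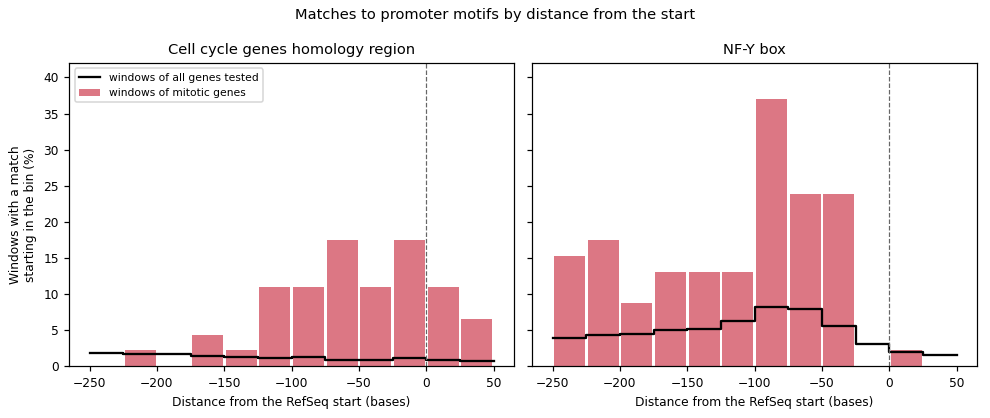
Share of promoter windows (%) with a match that starts in each 25-base bin, by distance from the RefSeq start, for the CHR (left) and the NF-Y box (right). Bars are the 46 windows of mitotic genes and the black line the windows of all genes tested. The bars exceeded the line most for the NF-Y box between 100 and 75 bases before the start (37.0% against 8.24%).

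Of the CDK1 group, 6 of 7 genes were called lower, against 19.5% of all genes tested. All 7 log2 fold changes were below 0, with a median of -0.48. Cdk1, the mitotic kinase itself, measured 152 and 151 TPM in 2D and 104 and 109 TPM in 3D. Cks1b, a small subunit that docks CDK complexes to their substrates, measured 44.9 and 45.0 TPM in 2D and 28.9 and 28.0 TPM in 3D. Its paralog Cks2, the most abundant of the mitotic transcripts, measured 209 and 220 TPM in 2D and 136 and 146 TPM in 3D. None of the 3 overlapped between the groups, and neither did any other of the 51 genes, while 38.2% of all genes tested were lower in both 3D samples. The 3 genes printed here and in each following function group have the smallest p, so their separation is no further support. Their log2 fold changes were -0.55 for Cdk1, -0.68 for Cks1b and -0.65 for Cks2 (limma adjusted p = 0.00425, 0.00407 and 0.00499).

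The cyclins fell and kept more of their 2D level than the kinase, a difference that was not tested. Ccna2 (cyclin A2), which acts from S phase into early mitosis, and Ccnb1 (cyclin B1), the main mitotic partner of CDK1, kept 78.7% and 78.4% of their 2D means, against 70.0% for Cdk1. Cdc25b, the phosphatase that starts CDK1 activation, kept 73.0% with a log2 fold change of -0.48. Cdc25c, which amplifies this activation, measured 11.3 and 11.0 TPM in 2D and 10.5 and 10.7 TPM in 3D. Its groups were apart by less than 1 TPM, and its log2 fold change of -0.11 (95% confidence interval -0.27 to 0.06) did not pass the test (limma adjusted p = 0.244). It was the only one of the 51 that did not, and it also did not pass under any of the 15 alternatives.

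All 6 genes of the Aurora and Polo group were called lower, against 19.5% of all genes tested, with a median of -0.59. Cdca8 (borealin), a subunit of the chromosomal passenger complex that guides Aurora B to centromeres, measured 71.9 and 76.1 TPM in 2D and 39.4 and 43.7 TPM in 3D. Aurkb (Aurora B), the kinase that corrects faulty attachments, measured 61.4 and 57.4 TPM in 2D and 41.2 and 40.7 TPM in 3D. Tpx2, which activates Aurora A on the spindle, measured 61.1 and 61.0 TPM in 2D and 40.1 and 42.4 TPM in 3D. In all 3 the 3D samples were clearly below the 2D samples. The log2 fold changes were -0.86 (Cdca8), -0.57 (Aurkb) and -0.60 (Tpx2), with limma adjusted p = 0.00409, 0.00411 and 0.00419. Birc5 (survivin), another passenger subunit, Plk1, the Polo-like kinase of mitotic entry and exit, and Aurka (Aurora A), which matures centrosomes, kept 63.3%, 67.8% and 73.6% of their 2D means.

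Of the spindle checkpoint and APC/C pathway, all 9 genes were called lower (median -0.51), against 19.5% of all genes tested. Cdca3, a trigger of mitotic entry and APC/C substrate, measured 27.8 and 27.2 TPM in 2D and 16.0 and 16.9 TPM in 3D. Cdc20, the APC/C activator that the checkpoint restrains, measured 86.5 and 88.6 TPM in 2D and 52.4 and 56.9 TPM in 3D. Pttg1 (securin), the separase inhibitor destroyed at anaphase, measured 46.9 and 51.6 TPM in 2D and 28.8 and 29.9 TPM in 3D. In each gene the 3D samples lay well below the 2D samples. Cdca3 had the smallest adjusted p of the 51 (log2 fold change -0.75, limma adjusted p = 0.00372), and Cdc20 and Pttg1 changed by -0.71 and -0.77 (limma adjusted p = 0.0041 and 0.00471).

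The other members kept more of their 2D means, and the difference from the 3 above was not tested. Ube2c, the ubiquitin-conjugating enzyme of the APC/C, kept 71.2% of its 2D mean. The checkpoint components Bub1b, Mad2l1 and Ttk kept 70.8%, 71.6% and 74.3%, and the kinase Bub1 79.3%. Bub3, a checkpoint scaffold, kept 88.2% and had a log2 fold change of -0.22 (limma adjusted p = 0.023).

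Centromere and kinetochore genes were called lower in all 7 cases, against 19.5% of all genes tested, with a median of -0.45. Nuf2, a subunit of the NDC80 complex that grips microtubules, measured 42.9 and 41.8 TPM in 2D and 29.6 and 30.6 TPM in 3D. Its partner Ndc80 measured 27.5 and 25.6 TPM in 2D and 18.1 and 20.1 TPM in 3D. Kif2c, a kinesin that depolymerizes microtubules at centromeres, measured 31.2 and 32.3 TPM in 2D and 22.6 and 23.9 TPM in 3D. Groups were separate in each. The log2 fold changes were -0.52, -0.50 and -0.48 (limma adjusted p = 0.00461, 0.00713 and 0.00759). The kinesin Cenpe, the large kinetochore protein Cenpf and the centromeric histone Cenpa kept 78.2%, 78.2% and 73.8%. Hjurp, the chaperone that loads Cenpa, kept 79.2% with the weakest passing p (limma adjusted p = 0.0494), and its call was lost under several alternatives.

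All 8 spindle motor and microtubule-associated genes were called lower (median -0.52), against 19.5% of all genes tested. Gtse1, which stabilizes spindle microtubules, measured 33.2 and 30.5 TPM in 2D and 18.4 and 20.2 TPM in 3D. Ckap2, a spindle-associated protein, measured 51.1 and 45.8 TPM in 2D and 29.3 and 31.8 TPM in 3D. Dlgap5 (HURP), which bundles microtubules near chromosomes, measured 25.9 and 26.9 TPM in 2D and 14.7 and 16.4 TPM in 3D. The 3D samples were well below the 2D samples in all 3. They changed by -0.74, -0.69 and -0.77 (limma adjusted p = 0.00407, 0.00411 and 0.00448). Tacc3, Hmmr, Nusap1 and Kif11, which act in spindle assembly and, for the kinesin Kif11, in pushing the poles apart, kept 71.1% to 79.8%. Ckap5, the microtubule polymerase that also acts in interphase, kept 88.8% with a log2 fold change of -0.21 (limma adjusted p = 0.0365).

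The central spindle and cytokinesis genes were also called lower in 7 of 7 cases, against 19.5% of all genes tested, with a median of -0.51. Racgap1, the GTPase-activating subunit of centralspindlin, measured 92.1 and 90.3 TPM in 2D and 60.5 and 63.7 TPM in 3D. Kif20a, a kinesin of the central spindle, measured 48.5 and 47.3 TPM in 2D and 30.7 and 32.9 TPM in 3D. Prc1, which crosslinks antiparallel microtubules, measured 92.3 and 90.4 TPM in 2D and 66.8 and 67.5 TPM in 3D. Replicates of each differed by a few TPM at most and the groups were far apart. The log2 fold changes were -0.59, -0.62 and -0.48 (limma adjusted p = 0.0041, 0.00411 and 0.00476). Kif23, the motor subunit of centralspindlin, Ect2, the exchange factor that activates RhoA, the kinesin Kif20b and the scaffold Anln kept 69.1% to 74.3%. Anln had the largest standard error of the 51 (0.108), with 22.0 and 17.0 TPM in 2D and 14.9 and 14.1 TPM in 3D.

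Genes of mitotic chromosome structure were called lower in 7 of 7 cases, against 19.5% of all genes tested. They had the median closest to 0 of the function groups, -0.39. Ncaph, a subunit of condensin I, measured 25.9 and 24.2 TPM in 2D and 17.3 and 17.9 TPM in 3D. Smc4, an ATPase of the condensin core, measured 58.8 and 52.1 TPM in 2D and 39.6 and 42.1 TPM in 3D. Top2a, the topoisomerase that untangles sister chromatids, measured 92.0 and 85.7 TPM in 2D and 70.4 and 74.5 TPM in 3D. The groups did not overlap. The log2 fold changes were -0.53, -0.47 and -0.33 (limma adjusted p = 0.00505, 0.0066 and 0.00998). The other condensin subunits Smc2 and Ncapd2 kept 83.7% and 86.8%. Mki67, the Ki-67 protein that coats mitotic chromosomes and is widely used as a proliferation marker, kept 78.1% and Cdca2, a chromatin-bound phosphatase regulator and the least abundant of the 51, kept 71.4%.

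**Figure D4:**
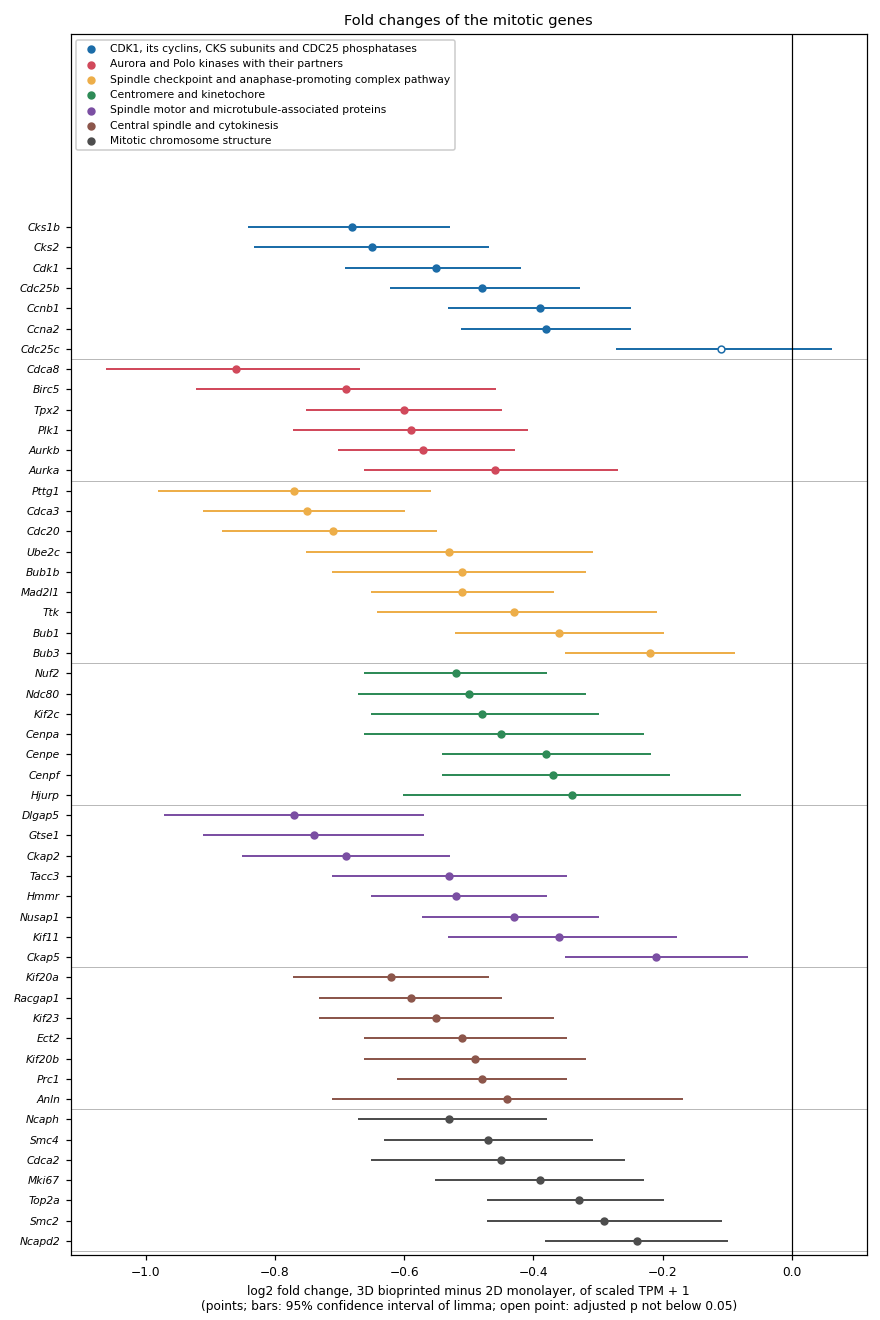
Log2 fold change (3D bioprinted minus 2D monolayer, on scaled TPM + 1) of the 51 mitotic genes, coloured by function, with the 95% confidence interval of limma as a bar. Filled points had an adjusted p below 0.05, and Cdc25c is the open point, with an interval from -0.27 to 0.06.

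Partners within a complex were compared by their log2 ratio of TPM in each sample, for 14 pairs chosen after the values had been seen and with no test. The groups overlapped in 5 pairs and were apart in 9, and no such share was computed over other gene pairs. The NDC80 pair kept its ratio, with Ndc80 over Nuf2 at -0.64 and -0.70 in 2D and -0.71 and -0.60 in 3D. The centralspindlin pair did as well, with Kif23 over Racgap1 at -1.90 and -1.91 in 2D and -1.93 and -1.84 in 3D. The ratio of Cks1b to Cks2 was -2.22 and -2.29 in 2D and -2.23 and -2.38 in 3D. In these 3 pairs the groups overlapped. They also overlapped for Birc5 over Aurkb of the passenger complex, at 0.59 and 0.86 in 2D and 0.57 and 0.64 in 3D (mean change -0.12). Hjurp over Cenpa overlapped too, at 0.09 and -0.21 in 2D and 0.08 and 0.03 in 3D (mean change 0.11).

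In other pairs the ratios of the groups were apart. The largest shift was that of the checkpoint proteins, with Bub1b over Bub3 at -2.34 and -2.49 in 2D and -2.79 and -2.66 in 3D. Within condensin I, Ncaph over Ncapd2 was -0.77 and -0.76 in 2D and -1.06 and -1.08 in 3D. For the condensin core, Smc4 over Smc2 was 0.43 and 0.49 in 2D and 0.27 and 0.28 in 3D. Within the passenger complex, Cdca8 over Aurkb was 0.23 and 0.41 in 2D and -0.06 and 0.10 in 3D. In these 4 pairs the first-named gene had the larger decrease, and the 3D ratios lay below the 2D ratios. Cdk1 fell more than its cyclins, so that Ccnb1 over Cdk1 was -0.86 and -0.96 in 2D and -0.75 and -0.74 in 3D.

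For 16 of the 51 genes the files held more than 1 transcript, 36 in all. The groups were apart with 3D lower for 22 of these transcripts and with 3D higher for 4, and they overlapped for 10, of which 3 were at 0 in all samples. No such share was computed over the transcripts of other genes. By gene, 38.2% of all genes tested were lower and 37.3% higher in both 3D samples. Cdc20 showed transcripts in opposite directions: ENSRNOT00000036151.4 measured 81.3 and 82.4 TPM in 2D and 45.2 and 49.6 TPM in 3D, whereas the minor ENSRNOT00000092742.1 measured 5.21 and 6.22 TPM in 2D and 7.21 and 7.24 TPM in 3D. The share of the minor transcript was 6.03% and 7.02% in 2D and 13.8% and 12.7% in 3D. For Cdk1, the leading transcript ENSRNOT00000000783.4 measured 96.5 and 99.8 TPM in 2D and 61.3 and 58.4 TPM in 3D, and ENSRNOT00000086806.1 overlapped between groups (32.9 and 24.2 TPM in 2D, 21.0 and 31.3 TPM in 3D). Reads of overlapping transcripts are divided by estimation, so these splits are less certain than the sums per gene.

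Genes of 6 further lists, assembled by function and with earlier results of these data known, were compared with the 51. In these lists, too, the number of lower calls fell most when a 3D sample was left out, in fits that take the spread from the 2D pair. Of 36 other kinetochore and centromere genes, 27 were called lower and none higher (1 had an unadjusted p below 0.05 and was higher), and their median was -0.44. Without 3D replicate 2, 13 were called lower. The leading genes were Cenpn and Cenpp of the constitutive centromere network, which changed by -0.88 and -1.04, and Ska1, a microtubule coupler, which changed by -0.82 (limma adjusted p = 0.00349, 0.00361 and 0.00349). Incenp, the scaffold of the passenger complex, changed by -0.40 (limma adjusted p = 0.00985).

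Of 35 other kinesins, spindle and centrosome genes, 21 were called lower and none higher, at an unadjusted p below 0.05 also 0, with a median of -0.37. Without 3D replicate 2, 6 were called lower. Kif22, a chromosome-arm kinesin, changed by -0.83, Psrc1, a spindle microtubule regulator, by -0.82 and Cep55, an abscission factor, by -0.68 (limma adjusted p = 0.00349, 0.00445 and 0.00494).

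The next 3 lists held genes called higher as well as lower. In each, the share called higher was below the 18.5% of all genes tested. Of 17 APC/C subunits and regulators, 7 were called lower and 1 higher (median -0.17). Without 2D replicate 2 and without 3D replicate 2, 3 and 1 were called lower, and without 2D replicate 1, 3 were called higher. The inhibitor Fbxo5 and the ubiquitin-conjugating enzyme Ube2s changed by -0.52 and -0.54 (limma adjusted p = 0.00568 and 0.0065), the late activator Fzr1 by -0.33 (limma adjusted p = 0.0164). Cdc16, a core APC/C subunit, rose from 67.0 and 66.1 TPM in 2D to 84.0 and 86.2 TPM in 3D (log2 fold change 0.31, limma adjusted p = 0.0115).

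Of 17 other condensin, cohesin and separase genes, 7 were called lower and 3 higher (median -0.13). Without 2D replicate 1, 4 were called lower and 5 higher, and without 3D replicate 2, 2 lower. Espl1 (separase) changed by -0.55 and the cohesin subunit Rad21 by -0.30 (limma adjusted p = 0.00765 and 0.0105). The 3 that rose were the cohesin loaders Mau2 and Nipbl and the cohesin regulator Pds5b, with log2 fold changes of 0.46, 0.36 and 0.25 (limma adjusted p = 0.00748, 0.0119 and 0.0281).

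Of 32 genes listed as regulators of mitotic transcription and entry, 14 were called lower and 3 higher, with a median of -0.23. The lower calls include the kinases Pbk and Melk and the cyclin Ccnf, so the count is not one of transcription factors alone. Without 2D replicate 1 and without 3D replicate 2, 9 and 5 were called lower, and without 2D replicate 2, 1 was called higher. Mybl2 and Foxm1, transcription factors that act on G2/M genes, fell by 0.50 and 0.32 on the log2 scale (limma adjusted p = 0.0061 and 0.0214). Of the 3 NF-Y subunits, Nfya was called lower (-0.28, limma adjusted p = 0.0264), and Nfyb and Nfyc, at -0.06 and -0.08, were not called. Of the 5 MuvB subunits, Lin37 was called lower (-0.44, limma adjusted p = 0.0175), and Lin9, Lin52, Lin54 and Rbbp4, at -0.24 to -0.02, were not called. The mitotic kinase Pbk changed by -0.89 (limma adjusted p = 0.00392). Cdkn1a (p21), a CDK inhibitor whose level is usually associated with cell cycle arrest, measured 53.9 and 47.1 TPM in 2D and 18.7 and 22.7 TPM in 3D and had the largest decrease of the list (-1.29, limma adjusted p = 0.00356). Wee1, the kinase that holds CDK1 inactive, measured 21.0 and 19.2 TPM in 2D and 28.6 and 25.7 TPM in 3D and rose (0.37, limma adjusted p = 0.0185). Pkmyt1, the other kinase that inhibits CDK1, fell, with 13.8 and 13.3 TPM in 2D and 9.56 and 9.79 TPM in 3D (-0.49, limma adjusted p = 0.00671). The repressor-type factor E2f5 and the retinoblastoma gene Rb1 also rose, by 0.33 and 0.31 (limma adjusted p = 0.0198 and 0.0467).

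DNA replication genes, which act before mitosis, were called lower in 31 of 36 cases and higher in none, with a median of -0.41. At an unadjusted limma p below 0.05, 0 were higher as well. Without 3D replicate 2, 14 were called lower. The helicase subunit Mcm3 changed by -0.61, Gins3 of the replicative helicase by -0.89 and the single-strand binding protein Rpa1 by -0.68 (limma adjusted p = 0.00407, 0.00407 and 0.00409). Among these lists and the 51 mitotic genes, the counts of lower genes thus stood above the 19.5% of all genes tested, at 98.0% for the mitotic genes and 86.1% for replication. The difference between lists was not tested.

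**Figure D5:**
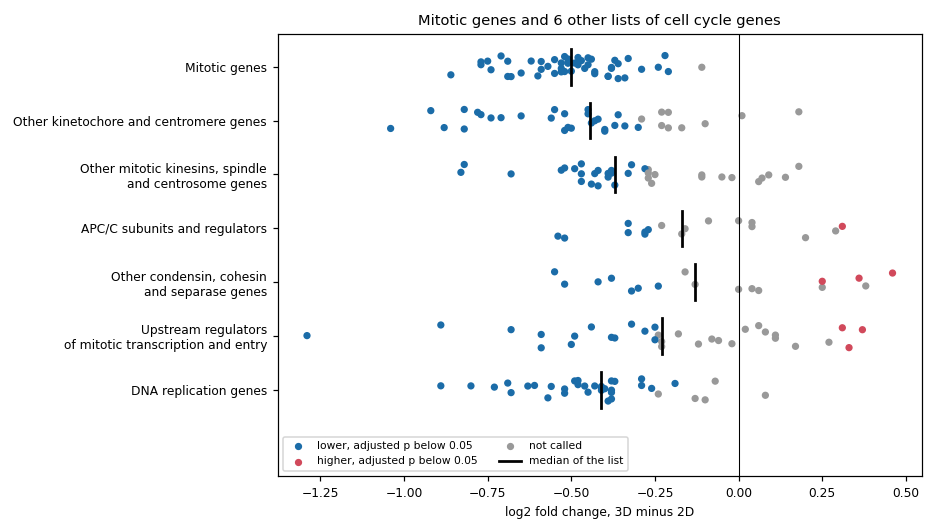
Log2 fold change (3D minus 2D) of the 51 mitotic genes and of the genes tested in 6 other lists, 1 point per gene with vertical scatter for legibility. Blue points were called lower, red points higher and grey points not called at an adjusted p of 0.05, and bars mark the median of each list, from -0.50 for the mitotic genes to -0.13 for the condensin, cohesin and separase genes.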

How the data were processed

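PolyA RNA of 4 INS-1 832/3 samples (2D monolayer and 3D bioprinted, 2 each, grouped by the labels) was sequenced by the authors as stranded libraries with 75 bp single-end reads. Per the labels, the reads were checked with FastQC 0.11.8 and quantified per transcript with Salmon 1.2, with rn4 given as the build and the human insulin gene added. The deposited values are TPM, which are scaled for transcript length and to 1000000 per sample, written with decimal commas and therefore entered as another unit in an automated check. The DESeq2 test of the study needs counts and was not repeated.

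After summing over the transcripts of a symbol, genes under a mean TPM of 1 were dropped, which left 11960. Scaling between samples used trimmed means of M without weights (30% of M, 5% of A). The R 4.3.3 package limma 3.58.1 was fitted to log2(TPM + 1), with moderation of variances along the intensity trend, and Benjamini-Hochberg adjustment covered all 11960 genes. Fold changes on this scale understate changes of genes with low TPM. The steps were also run on simulated TPM with independent noise per gene and few changed genes. Such a run does not mimic shifts shared by genes within a culture and does not vouch for the calls here.

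The mitotic genes, the other lists and the partner pairs were chosen with earlier results of these data known. Within each function, TPM per sample are given for the 3 genes with the smallest p and for any gene not called, and the other genes by the share of the 2D mean they kept. The other lists are represented by their 3 genes with the smallest p and by Foxm1, Mybl2, Fzr1, Incenp, Wee1 and Cdkn1a. Pds5b, Nipbl, E2f5, Rb1, Pkmyt1, the NF-Y and MuvB subunits, the called beta cell markers, Anln, Bub3, Hjurp and Ckap5 were singled out after their values were seen. Promoter sequences are RefSeq sequences of GRCr8, matched by symbol. Coordinates of the deposited transcripts and protein sequences were not used here. The fit was repeated with other scalings, filters, pseudocounts and empirical Bayes settings, with a replicate block, with the leading transcript of each gene, at a stricter threshold and without each sample in turn.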

Additional observations from a re-analysis of the deposited data

How the results depend on the processing

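Across the 15 alternatives, all 51 mitotic genes kept a log2 fold change below 0 and none was called higher. Apart from the left-out samples, 35 (adjusted p below 0.01) to 50 were called lower, with 45 for TPM without scaling, which lost Hjurp, Ckap5, Anln, Smc2 and Ncapd2. Leaving out each sample in turn gave 0 to 49 mitotic genes, 31 to 2241 of all genes lower and 105 to 2285 higher, the fewest without 3D replicate 1. For the other lists, the left-out samples gave 1 to 24 kinetochore genes lower, 1 to 18 kinesin, spindle and centrosome genes lower, 0 to 8 APC/C genes lower and 0 to 3 higher, 0 to 6 condensin, cohesin and separase genes lower and 0 to 5 higher, 2 to 13 regulators lower and 0 to 4 higher, and 0 to 29 replication genes lower. At an adjusted p below 0.01, 709 of all genes were lower and 727 higher, as were 11 kinesin, spindle and centrosome genes lower, 2 APC/C genes lower and 0 higher, 1 condensin, cohesin and separase gene lower and 1 higher, 7 regulators lower and 0 higher, and 18 replication genes lower. Lower APC/C genes numbered 4 without scaling, with upper-quartile scaling, without a filter and without the trend, and higher ones 2 with a mean TPM of at least 5. Without scaling, 4 condensin, cohesin and separase genes and 8 regulators were lower, and 1 kinetochore gene (Zwint, also with upper-quartile scaling) was higher. Higher condensin, cohesin and separase genes numbered 5 with upper-quartile scaling, a mean TPM of at least 5, a pseudocount of 5 or robust estimation. Without a filter, 0 regulators were higher. The cause of these shifts was not tested. The median of the mitotic genes was -0.46 without scaling, -0.47 with upper-quartile scaling, -0.53 without a filter, -0.44 with a pseudocount of 5 and -0.53 to -0.46 with a sample left out. The summed TPM of the leading transcripts was 2559 in 2D and 1815 in 3D.

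With a replicate block, 50 mitotic genes were called lower, 2366 of all genes were lower and 2439 higher, 2 APC/C genes and 5 condensin, cohesin and separase genes were higher, and no mitotic gene lost its call. No pairing by replicate number was seen: same-numbered samples deviated from their groups with a correlation of -0.00601 over all genes tested and of 0.242 over the 51 mitotic genes, from 2 pairs only. Genes are not independent replicates.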
